A study of Homo sapiens with 36 samples.

Results

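The genes described here are 34 human genes of glycolysis, lactate handling, pyruvate entry and the pentose phosphate branch, taken by symbol from the 19137 symbols of the deposited count tables. All 34 were present. They comprised 4 membrane carriers, 9 enzymes of the upper glycolytic steps, 3 regulatory PFKFB enzymes, 6 enzymes of the lower steps, 2 lactate dehydrogenase subunits, 4 pyruvate dehydrogenase kinases and 6 pentose phosphate enzymes. The tables listed 36499 transcript rows, and where a symbol had several rows the one with the highest mean count over the 36 libraries was used. Ribosome-protected fragments (footprints) and total RNA had been sequenced from 2 human cell models of transformation.

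The first model was MCF10A-ER-Src, a line of non-malignant breast epithelial cells with a Src fusion to the estrogen receptor ligand-binding domain that 4-hydroxy-tamoxifen switches on. These cells received 1 µM of the drug for 1, 4 or 24 h. Cycloheximide footprints came from 2 libraries at each of these times and from 4 uninduced libraries, which were 1 library at 0 h and 1 at 1, 4 and 24 h of ethanol. The 0 h library carried replicate number 1 and the ethanol libraries number 2, so that vehicle and replicate number cannot be told apart. Total RNA had 1 library at each tamoxifen time and 4 uninduced libraries with the same makeup, and harringtonine footprints had 1 library at 0, 1, 4 and 24 h. The second model comprised the BJ fibroblast lines ELR, EL and EH, each with 2 cycloheximide, 2 harringtonine and 1 RNA library. The labels spell out neither the alleles behind the names ELR, EL and EH nor whether a line is 1 clone, and no source used here names the promoter that drives the Src fusion. Cycloheximide (100 µg/ml for 90 s) holds elongating ribosomes in place, and harringtonine (2 µg/ml for 5 min) holds ribosomes at start codons while those downstream run off.

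With 1 row per symbol, cycloheximide libraries held 1334866 to 3628073 counts in ER-Src cells and 1178012 to 2606344 in BJ lines, RNA libraries held 2225844 to 3008760 in ER-Src cells and 2071883 to 2551358 in BJ lines, and harringtonine libraries held 163092 to 374359 in ER-Src cells and 129175 to 214806 in BJ lines. The 34 genes took 2.39% to 3.38% of cycloheximide counts in ER-Src cells and 2.31% to 3.30% in BJ lines. The 10 epithelial markers summed to 10810 to 22020 CPM (the count divided by the scaled library size, per 1e6 counts) in ER-Src footprints and 852.8 to 1324 CPM in BJ footprints, and the 10 fibroblast markers to 922 to 1554 CPM in ER-Src footprints and 11610 to 44390 CPM in BJ footprints. In cycloheximide footprints, all epithelial markers were detected in ER-Src cells, whereas 3 of the 10 were at 0 in BJ lines, and 3 of the 10 fibroblast markers were at 0 in ER-Src cells. Within ER-Src footprints, SRC had 226.9 to 312.7 CPM at 24 h and 296.5 to 491.1 CPM uninduced, and ESR1, whose domain the fusion carries, had 765.2 to 1691 CPM, against 0 CPM in BJ cycloheximide footprints. HRAS footprints were 139 to 151.3 CPM in ELR, 33.1 to 34.3 CPM in EL and 26.2 to 29.6 CPM in EH. ER-Src replicates varied more than BJ replicates, with a biological coefficient of variation of 13.89% in ER-Src footprints and 1.803% in BJ footprints. Nothing in the labels says that replicates were separate cultures, so p-values measure the spread between these libraries, which may be technical. The chi-square per gene between paired libraries was 1.087 to 1.177 in BJ lines and 3.827 to 5.272 in ER-Src cells, where counting noise alone gives about 1. The BJ p-values thus measure a spread near that of counting. Whether BJ pairs were separate cultures was not tested. In bulk samples, fewer cells of a type and less RNA per cell cannot be told apart.

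Glycolysis splits glucose into pyruvate and gains ATP in its lower steps, and lactate dehydrogenase then regenerates NAD by reducing pyruvate to lactate. PFKFB enzymes set the amount of fructose-2,6-bisphosphate, the strongest activator of phosphofructokinase, and PDK kinases hold back the entry of pyruvate into the citrate cycle. The pentose phosphate branch makes NADPH and ribose phosphate from glucose-6-phosphate. Proliferating and transformed cells commonly run glycolysis with lactate release in the presence of oxygen, and many of these genes are direct targets of the hypoxia-inducible factor HIF-1, which binds an ACGTG core.

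The promoter windows of 4 genes are shown because they hold that core and because the genes' footprints rose at 24 h of tamoxifen. RefSeq promoter windows (build GRCh38.p14, 250 bases before to 50 after the start, 300 bases) were matched for 31 of the 34 genes, with SLC2A3, SLC16A1 and PFKFB2 the ones named only. For 11 genes the table held several windows, of which the first listed was used. The letters ACGTG, on either strand, stood in 10 of these 31 windows (32.3%), against 21.4% of 35116 windows over all genes in the table. These shares differ in unit, 1 window a gene for the 31 and every window of 300 bases for all genes. With every listed window of a gene searched, the core stood in a window of 17 of the 31 genes. No share over all genes was computed for that search, in which genes with several windows have more chances. The E-box CACGTG, which contains ACGTG and was therefore counted under both, stood in 3 of the 31 (9.68%) and in 7.26% of all windows. By the first listed window, the core stood in 4 of the 7 genes that rose at 24 h. It stood in 6 of the 22 that did not pass the test and in 0 of the 1 that fell. ENO2, among the 4, passed the filter on low counts only through its 24 h libraries. Capitals mark the core, written ACGTG or, on the other strand, CACGT. The windows were chr17:28576846-28577145 on the minus strand for ALDOC with 3 matches, chrX:78103998-78104297 on the plus strand for PGK1 with 3, chr12:6914330-6914629 on the plus strand for ENO2 with 1, and chr11:18394313-18394612 on the plus strand for LDHA with 5. Matches were counted on each strand, so that an E-box, which reads the same on both, was counted on both. The ALDOC window held 1 E-box and the LDHA window 2, and their matches are therefore not all separate stretches. A match is a run of letters and not a measured binding site.
ALDOC: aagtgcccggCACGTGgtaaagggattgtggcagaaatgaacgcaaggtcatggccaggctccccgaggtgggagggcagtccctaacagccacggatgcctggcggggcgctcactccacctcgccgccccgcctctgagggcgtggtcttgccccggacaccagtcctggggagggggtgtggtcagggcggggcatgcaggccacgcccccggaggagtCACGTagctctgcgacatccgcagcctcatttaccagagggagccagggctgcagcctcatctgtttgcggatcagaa
PGK1: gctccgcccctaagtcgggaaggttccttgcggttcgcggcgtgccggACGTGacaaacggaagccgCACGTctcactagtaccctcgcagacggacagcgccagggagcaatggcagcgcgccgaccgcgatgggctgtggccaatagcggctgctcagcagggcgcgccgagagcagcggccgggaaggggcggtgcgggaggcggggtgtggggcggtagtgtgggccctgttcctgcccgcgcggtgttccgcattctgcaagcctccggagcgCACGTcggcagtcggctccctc
ENO2: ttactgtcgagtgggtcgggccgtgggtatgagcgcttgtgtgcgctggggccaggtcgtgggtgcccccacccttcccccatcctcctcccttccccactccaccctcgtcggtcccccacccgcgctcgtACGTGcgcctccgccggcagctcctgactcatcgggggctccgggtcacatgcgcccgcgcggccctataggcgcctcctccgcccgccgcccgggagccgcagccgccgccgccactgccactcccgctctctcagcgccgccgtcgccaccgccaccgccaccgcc
LDHA: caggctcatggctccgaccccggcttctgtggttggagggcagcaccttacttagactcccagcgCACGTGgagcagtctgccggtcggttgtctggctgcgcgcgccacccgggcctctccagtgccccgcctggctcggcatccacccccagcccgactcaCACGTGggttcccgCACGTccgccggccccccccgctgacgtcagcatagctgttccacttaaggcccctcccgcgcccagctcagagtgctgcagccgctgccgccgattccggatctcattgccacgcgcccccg

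Levels were compared between genes only per kilobase of coding length (annotated canonical transcript, GENCODE lifted to GRCh37). The counts are those of the chosen row, which may differ in length from that transcript, and the counted region is not given. In uninduced ER-Src footprints GAPDH, which oxidises glyceraldehyde-3-phosphate, led with 7035 ± 174 CPM per kilobase (SD, n = 4). LDHA, the muscle-type lactate dehydrogenase subunit, followed with 3582 ± 418, the enolase ENO1 with 3040 ± 163 and the pyruvate kinase PKM with 2270 ± 146 CPM per kilobase. In EH footprints the order at the top was the same, with GAPDH at 7066 ± 94.7, LDHA at 2647 ± 85.9, ENO1 at 2397 ± 33.6 and PKM at 2111 ± 58.9 CPM per kilobase (SD, n = 2). LDHB and ALDOA, at 1892 ± 130 and 1754 ± 140 CPM per kilobase in uninduced ER-Src cells, lay within about 1 SD of each other. The lowest footprint levels in uninduced ER-Src cells were those of PFKFB4 (2.33 ± 0.934), PDK4 (1.24 ± 0.466), ENO2 (1.11 ± 0.966) and SLC2A3 (0.341 ± 0.32 CPM per kilobase), and neighbours in this order lay within 1 SD of each other except PFKFB4 and PDK4. In EH footprints the lowest were PFKFB2 (2.11 ± 0.465), PFKFB4 (1.16 ± 0.161) and PDK4 (0.365 ± 0.515 CPM per kilobase). In uninduced ER-Src RNA, LDHA (2741 ± 292) and GAPDH (2735 ± 156 CPM per kilobase) did not differ beyond their spread. The LDHA level depends on the row taken. Over all ER-Src RNA libraries its mean count was 7922.6 in the row used and 7123.4 in the next highest row.

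In ER-Src cells at 24 h of tamoxifen, footprints rose for 8 of the 33 genes that passed the filter on low counts and fell for 1. The genes that rose were the neuronal-type glucose carrier SLC2A3, the aldolase ALDOC, the regulatory enzymes PFKFB3 and PFKFB4, the phosphoglycerate kinase PGK1, the enolase ENO2, LDHA and the kinase PDK1, and PFKP, the platelet-type phosphofructokinase, fell. Calls were made with edgeR's quasi-likelihood test at a Benjamini-Hochberg adjusted p of 0.05 over all genes tested. At this time 14.6% of all genes were called, 8.8% higher and 5.84% lower. SLC2A3 and ENO2, counted among the 8, passed the filter only through their 24 h libraries, where they were high. The median log2 fold change of the 33 genes was 0.20, against −0.01 for all genes.

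PFKFB3 (GRCh37 chr10:6186897-6296607), which makes fructose-2,6-bisphosphate, had 299.6 and 265 CPM of footprints in the 24 h libraries, against 43.7, 57.9, 54.98 and 41.03 CPM in the uninduced libraries at 0 h and at 1, 4 and 24 h of ethanol. The groups lay far apart, and the log2 fold change was 2.50 ± 0.17 (SE, adjusted p = 8.03e-08), which is 5.68-fold. At 1 h it had 40.7 and 56.7 CPM and at 4 h 61.5 and 44.4 CPM, in or near the uninduced range. PFKFB4, its relative, had 13.5 and 12.04 CPM at 24 h, against 1.51, 3.07, 4.34 and 4.21 CPM in the uninduced libraries (log2 fold change 1.83 ± 0.38, adjusted p = 0.00402). Its counts were low, 22 and 40 at 24 h and 2, 9, 12 and 16 in the uninduced libraries, but the groups did not overlap.

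SLC2A3, a glucose carrier of high affinity, was nearly absent before induction. It had 14 and 25 counts (8.61 and 7.53 CPM) at 24 h, against 0, 2, 3 and 1 counts (0, 0.681, 1.09 and 0.263 CPM) in the uninduced libraries. The groups did not overlap, and the log2 fold change was 3.73 ± 0.66 (SE, adjusted p = 0.000999). SLC2A3 passed the filter on low counts only through the 24 h libraries, the group in which it was high. At 4 h it had 3.45 and 0.313 CPM in the 2 libraries, which did not pass the test. ENO2, the neuronal-type enolase, had 10 and 21 counts (6.15 and 6.32 CPM) at 24 h, against 4, 5, 3 and 0 counts (3.01, 1.70, 1.09 and 0 CPM) in the uninduced libraries. The groups did not overlap in CPM, and the log2 fold change was 2.40 ± 0.69 (adjusted p = 0.0292). ENO2, too, passed the filter only through the 24 h libraries. ALDOC, the brain-type aldolase, had 30.1 and 18.7 CPM at 24 h, against 9.04, 10.6, 15.2 and 5.52 CPM in the uninduced libraries (log2 fold change 1.24 ± 0.36, adjusted p = 0.0312). The lower 24 h value lay just above the highest uninduced one.

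PDK1 (GRCh37 chr2:173420101-173473397), which phosphorylates and inhibits pyruvate dehydrogenase, had 54.8 and 44.6 CPM at 24 h, against 21.9, 25.2, 26.05 and 24.7 CPM in the uninduced libraries (log2 fold change 0.99 ± 0.18, adjusted p = 0.00112). Both 24 h values stood above every uninduced value, and so they did for the next pair of genes. PGK1 (GRCh37 chrX:77166236-77384792), which makes ATP in the lower steps, had 1241 and 1319 CPM at 24 h, against 878, 765, 804 and 745 CPM in the uninduced libraries (log2 fold change 0.68 ± 0.13, adjusted p = 0.00198). LDHA (GRCh37 chr11:18416107-18429972) had 5245 and 5548 CPM at 24 h, against 4169.5, 3275, 3305 and 3522 CPM in the uninduced libraries (log2 fold change 0.60 ± 0.16, adjusted p = 0.0194). Its values of 3798 and 2512 CPM at 1 h and 3978 and 3362 CPM at 4 h spread about the uninduced range. PFKP had 373 and 331 CPM at 24 h, against 561, 513, 454 and 409.6 CPM in the uninduced libraries (log2 fold change −0.46 ± 0.15, adjusted p = 0.0452). These groups did not overlap, but the call was lost with the ethanol libraries alone as uninduced (adjusted p = 0.102), and so was that of ALDOC (adjusted p = 0.0563). PFKP also fell from 1 h to 24 h within the ethanol libraries. Against the ethanol library of 24 h, the log2 ratio of the replicate 2 tamoxifen library was −0.31. The part of time in culture in this call was not tested. Processed copies of GAPDH, PGK1, LDHA, ENO1, TPI1 and PGAM1 exist in the genome, and no source used here says how reads shared with them were counted.

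**Figure D1:**
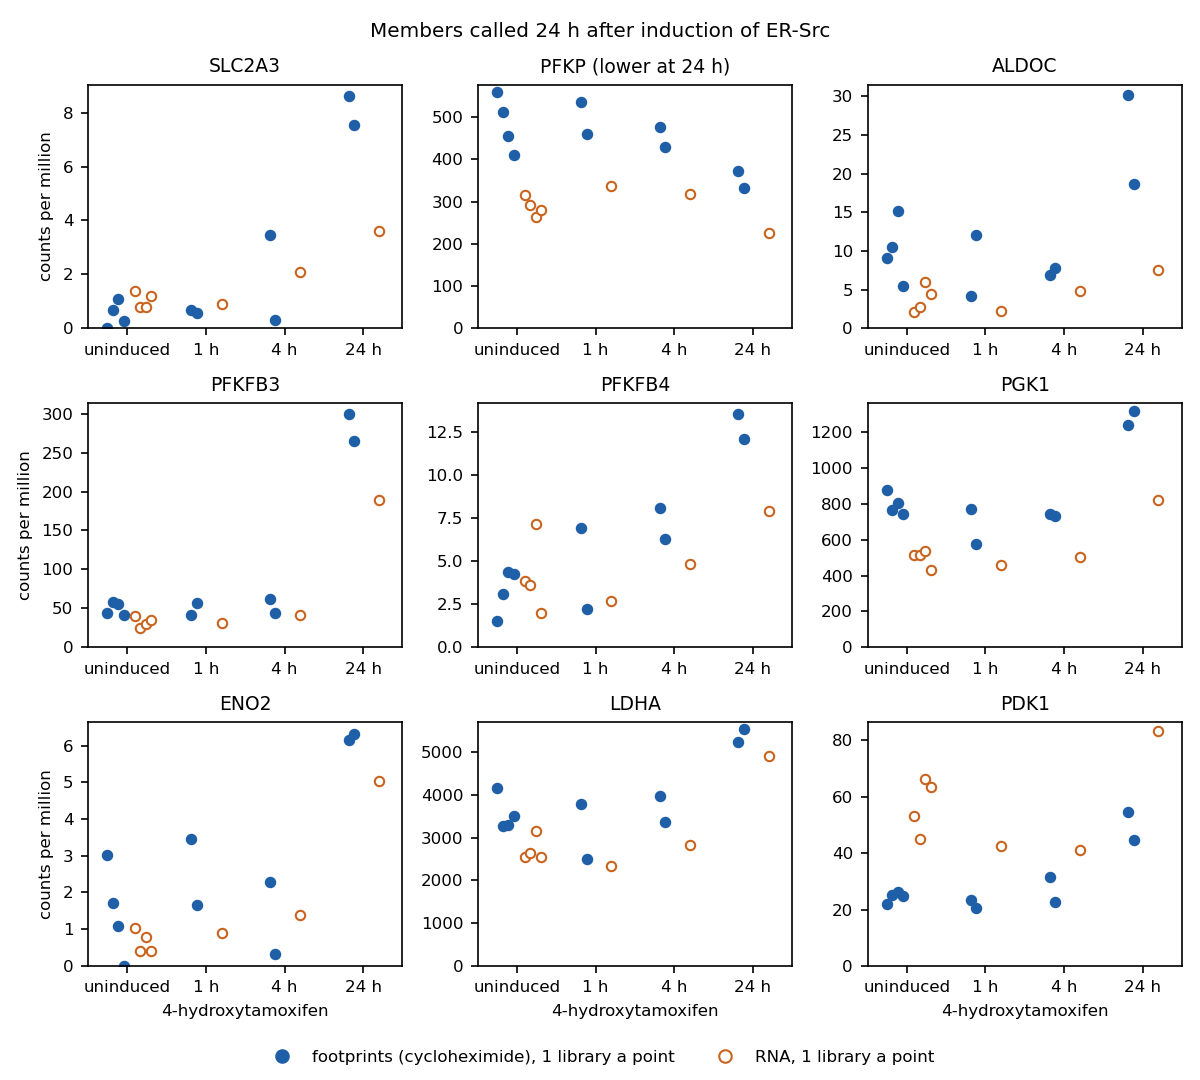
Footprints (filled) and RNA (open) in CPM of 9 genes in ER-Src cells against condition and hours of tamoxifen, with 1 library a point. PFKFB3 footprints stand at 299.6 and 265 CPM at 24 h, above all earlier libraries, and PFKP is the gene of the set that fell.

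The call rested on both 24 h libraries for some of these genes. Without either one, 5 genes were called, and these were SLC2A3, PFKFB3, PFKFB4, PGK1 and PDK1 in both cases. The other 24 genes tested at 24 h did not pass, with log2 fold changes of −0.43 (PGLS) to 0.82 (PDK3). Among them PDK3 had a log2 fold change of 0.82 ± 0.28 (adjusted p = 0.0606), GAPDH of −0.03 ± 0.13 and none of the 6 pentose phosphate enzymes was called. PDK4 was left out by the filter in every comparison. Of the 10 epithelial markers 6 rose at 24 h, where 8.8% of all genes rose and 5.84% fell, with a median log2 fold change of 0.53, of 5 fibroblast markers tested 1 rose and 1 fell, and the 6 leukocyte markers summed to 10.8 to 47.62 CPM over all ER-Src footprint libraries. The part of these shifts in the changes above was not tested.

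At 1 h none of the 33 genes was called, where 0.0196% of all genes were, and at 4 h again none, where 0.854% were, 0.834% higher and 0.0196% lower. At an unadjusted p under 0.05, edgeR's quasi-likelihood test gave 2 genes at 1 h, both lower, and 1 at 4 h, which was higher. DESeq2 called 0 genes at either time.

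The neighbouring lists were described by the same counts, where 8.8% of all genes rose at 24 h and 5.84% fell. Of 15 further genes of the hypoxia response 12 rose at 24 h and none fell, with a median log2 fold change of 1.48, among them NDRG1 (3.41), HIF1A itself (2.39) and VEGFA (2.06). Of 13 citrate cycle genes none rose and 1 fell, FH by 0.42 on the log2 scale. Of 9 genes of pyruvate entry 1 rose, the pyruvate dehydrogenase phosphatase PDP1 (log2 fold change 1.32).

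RNA of the same cells had 1 library at each tamoxifen time, set here beside the ethanol library of the same time. PFKFB3 RNA was 189.7 CPM in the 24 h tamoxifen library, against 29.0 CPM in the ethanol library. LDHA RNA was 4922 CPM with tamoxifen and 3159.8 CPM with ethanol, and PGK1 RNA was 821 CPM with tamoxifen and 539.9 CPM with ethanol. ENO2 had 5.03 CPM with tamoxifen and 0.795 CPM with ethanol, and SLC2A3 had 3.59 CPM with tamoxifen and 0.795 CPM with ethanol. All 5 of these genes were higher with tamoxifen, the last pair on few counts. PFKFB4 RNA was 7.90 CPM with tamoxifen (22 counts) and 7.16 CPM with ethanol (18 counts), the highest of the 4 uninduced libraries, the others of which had 1.99 to 3.82 CPM. For the other genes whose footprints rose, the RNA log2 ratio at 24 h was smaller, 0.32 for PDK1 (83.3 against 66.4 CPM) and 0.295 for ALDOC (7.54 against 5.96 CPM). PFKP RNA was 224.5 CPM with tamoxifen and 264 CPM with ethanol. Taking the 4 h and 24 h libraries as 1 late group of 2, none of the 31 genes tested was called by edgeR's quasi-likelihood test (lowest adjusted p = 0.112), where 0.424% of all genes were. DESeq2 called 0 as well, and 6 genes were higher at an unadjusted p under 0.05. With the 24 h library as a group of its own, which is 1 library with no replicate check and is assumed to vary like the uninduced ones, 4 of the genes passed, where 6.47% of all genes did. They were PFKFB3 (log2 fold change 2.57), LDHA (0.85), PGK1 (0.72) and the triose phosphate isomerase TPI1 (0.54).

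Harringtonine footprints, 1 library a time and without a test, gave PFKFB3 114 CPM at 0 h, 141 CPM at 1 h, 146 CPM at 4 h and 538 CPM at 24 h. LDHA had 5233, 5221, 6239.6 and 7839 CPM at these times, and PGK1 520.3, 458, 479 and 832 CPM. In each of these 3 genes the 24 h library was the highest.

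Loading, the change of footprints beyond that of RNA, was tested as the interaction of time and assay. None of the 33 genes was called at 1, 4 or 24 h, where 0%, 0% and 0.44% of all genes were, the last made up of 0.00898% higher and 0.431% lower. At 24 h the median log2 change in loading was −0.13 for these genes, against −0.01 for all genes, and the lowest adjusted p among them was 0.791. At an unadjusted p under 0.05, edgeR's quasi-likelihood test gave 1 gene at 1 h, 0 at 4 h and 2 at 24 h, and DESeq2 called 0 at each time. PFKFB3 loading changed by −0.10 ± 0.30 and LDHA loading by −0.28 ± 0.24 on the log2 scale at 24 h (SE), neither beyond its error by the test.

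In the BJ lines, most enzymes of the upper and lower glycolytic steps had more footprints in EL and in ELR than in EH. Footprints of 17 of the 32 genes tested were higher in EL than in EH and 4 were lower, where 41.5% of all genes were called, 19.1% higher and 22.4% lower. The median log2 fold change of the 32 genes was 0.30, against −0.01 for all genes. ELR over EH gave 18 higher and 6 lower of 32, where 53.4% of all genes were called, 25.5% higher and 27.8% lower, with a median of 0.22 against −0.01. ELR over EL gave 8 higher and 7 lower, where 36.1% of all genes were called, 17.4% higher and 18.7% lower, with medians of −0.01 for these genes and −0.01 for all genes. When the wider spread of the ER-Src libraries was shared with the BJ fit, EL over EH gave 12 higher and 2 lower, ELR over EH 13 higher and 3 lower, and ELR over EL 3 calls, with HK2 and PFKM higher and PKM lower. The other ELR over EL calls, those of LDHA and LDHB included, were lost there. Their p-values below rest on the spread of the BJ libraries alone. The 3 comparisons share libraries. The 10 fibroblast markers moved with the lines: 10 of 10 were lower in EL than in EH, with a median log2 fold change of −1.87, and 9 were lower in ELR than in EL. Their part in the changes of the glycolytic genes was not tested.

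By role, EL over EH gave 7 higher and 0 lower of 9 upper enzymes, 5 higher and 1 lower of 6 lower enzymes, 2 higher of 2 lactate dehydrogenase subunits, and 1 higher and 2 lower of 6 pentose phosphate enzymes. ELR over EH gave 6 higher and 1 lower of 9 upper enzymes, 5 higher and 1 lower of 6 lower enzymes, and 2 higher and 3 lower of 6 pentose phosphate enzymes. None of the 3 PDK genes tested was called in either. Of the list of 13 citrate cycle genes 6 were higher in EL than in EH and 7 were higher in ELR than in EH, with none lower. The hypoxia response list gave 2 higher and 3 lower of 11 in EL over EH and 1 higher and 7 lower of 11 in ELR over EL. Beside these counts by role and list, 19.1% of all genes were higher and 22.4% lower in EL over EH. The shares of all genes were 25.5% higher and 27.8% lower in ELR over EH, and 17.4% and 18.7% in ELR over EL.

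Among the carriers, SLC2A1, the widespread glucose carrier, had 192 and 189 CPM in ELR, 192 and 184 CPM in EL and 144 and 155 CPM in EH (log2 fold change of ELR over EH 0.36 ± 0.09, SE, adjusted p = 0.000696; of EL over EH 0.34 ± 0.09, adjusted p = 0.00171). ELR and EL overlapped, and both lay above EH. SLC16A1, a lactate carrier, had 169 and 163 CPM in ELR, 160.0 and 169 CPM in EL and 234 and 193 CPM in EH, and it was lower in EL than in EH (−0.39 ± 0.09, adjusted p = 0.000163). The EH libraries were the highest and did not overlap with the others. SLC16A3, the lactate exporter of glycolytic cells, had 638 and 629.6 CPM in ELR, 551 and 613 CPM in EL and 539 and 550.1 CPM in EH, and it was higher in ELR than in EH (0.22 ± 0.05, adjusted p = 0.000316).

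Some upper enzymes were higher in ELR than in EL and higher in EL than in EH. HK2, the inducible hexokinase (GRCh37 chr2:75061254-75120486), had 119.6 and 124 CPM in ELR, 82.1 and 79.7 CPM in EL and 56.9 and 49.4 CPM in EH. It was higher in ELR than in EL by a log2 fold change of 0.59 ± 0.10 (SE, adjusted p = 1.02e-06) and in EL than in EH by 0.60 ± 0.14 (adjusted p = 0.000364). The 3 lines did not overlap. PFKM, the muscle-type phosphofructokinase (GRCh37 chr12:48498922-48540187), had 152 and 134 CPM in ELR, 100.2 and 93.3 CPM in EL and 69.4 and 71.01 CPM in EH, with a log2 fold change of 0.57 ± 0.09 for ELR over EL (adjusted p = 3.36e-07) and 1.04 ± 0.12 for ELR over EH (adjusted p = 1.19e-11). PFKL, the liver-type subunit, had its lowest values in ELR, with 153 and 163 CPM in ELR, 211 and 236 CPM in EL and 223 and 183 CPM in EH, and was lower in ELR than in EL (−0.50 ± 0.08, adjusted p = 1.35e-07). TPI1, the triose phosphate isomerase, had 1649 and 1651 CPM in ELR, 1439.6 and 1503 CPM in EL and 946 and 1004 CPM in EH, with a log2 fold change of 0.76 ± 0.04 for ELR over EH (adjusted p = 4.65e-28). Its lines did not overlap either.

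HK1, the constitutive hexokinase, had 264 and 288 CPM in ELR, 242 and 253 CPM in EL and 202 and 222 CPM in EH, and it was higher in ELR than in EH (0.38 ± 0.08, SE, adjusted p = 3.46e-05). GPI, the glucose-6-phosphate isomerase, had 667 and 670.0 CPM in ELR, 658 and 664 CPM in EL and 485 and 479 CPM in EH (0.47 ± 0.05 for ELR over EH, adjusted p = 2.65e-12). ALDOA, the main aldolase, had 2519.7 and 2591 CPM in ELR, 2424 and 2474 CPM in EL and 1795 and 1891 CPM in EH (0.47 ± 0.03 for ELR over EH, adjusted p = 3.08e-21). In GPI and ALDOA the EH libraries were the lowest and did not overlap with ELR or EL.

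ALDOC and PFKFB4 were highest in EL. ALDOC had 10.7 and 10.8 CPM in ELR, 24.6 and 20.4 CPM in EL and 7.39 and 14.4 CPM in EH, and it was lower in ELR than in EL (−1.07 ± 0.25, SE, adjusted p = 0.000394) and higher in EL than in EH (1.10 ± 0.30, adjusted p = 0.00231). PFKFB4 had 12 and 14 counts in ELR, 25 and 27 in EL and 2 and 2 in EH, which is 4.57 and 7.56 CPM in ELR, 9.45 and 12.2 CPM in EL and 1.48 and 1.80 CPM in EH. The log2 fold change of EL over EH was 2.68 ± 0.59 (adjusted p = 0.000139) on these few counts. PFKFB4 needed the EL libraries, where it was highest, to pass the filter on low counts. PFKFB3, the gene that rose most by adjusted p with tamoxifen in ER-Src cells, had 44.96 and 48.1 CPM in ELR, 35.2 and 48.5 CPM in EL and 39.1 and 41.3 CPM in EH and was not called in any of the 3 comparisons. The other genes called in none of them were SLC2A3, PFKP, PDK1, PDK3 and RPE, with log2 fold changes of −0.35 to 0.35. PFKFB2 and PDK4 did not pass the filter in these libraries.

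All lower enzymes except PKM were higher in EL and in ELR than in EH. GAPDH (GRCh37 chr12:6643678-6647540) had 10785 and 11064 CPM in ELR, 9609 and 9809 CPM in EL and 7034 and 7169 CPM in EH, with a log2 fold change of 0.62 ± 0.02 for ELR over EH (SE, adjusted p = 2.21e-35). PGAM1, the phosphoglycerate mutase, had 636 and 624 CPM in ELR, 657 and 649 CPM in EL and 360.5 and 378 CPM in EH, and it was higher in EL than in EH (0.83 ± 0.06, adjusted p = 1.56e-21). PGK1 had 754 and 789 CPM in ELR, 846 and 821 CPM in EL and 543 and 558 CPM in EH, so that EL was the highest, and the log2 fold change was 0.60 ± 0.05 for EL over EH (adjusted p = 1.12e-17) and −0.12 ± 0.04 for ELR over EL (adjusted p = 0.0161). In PGAM1 and PGK1 both EL and ELR lay above EH. ENO1 had 4041 and 4036 CPM in ELR, 4085 and 4195 CPM in EL and 3090.5 and 3152 CPM in EH, with 0.37 ± 0.03 for ELR over EH (adjusted p = 1.91e-19). ENO2 had 143 and 137 CPM in ELR, 97.9 and 103 CPM in EL and 44.3 and 51.2 CPM in EH, with 1.57 ± 0.13 for ELR over EH (adjusted p = 4.92e-17). Its 3 lines did not overlap, and neither did those of the next gene. PKM (GRCh37 chr15:72491370-72524160) had 2439 and 2396 CPM in ELR, 3003 and 3051 CPM in EL and 3296 and 3428 CPM in EH, with −0.32 ± 0.03 for ELR over EL (adjusted p = 1.76e-16) and −0.15 ± 0.03 for EL over EH (adjusted p = 9.28e-06).

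**Figure D2:**
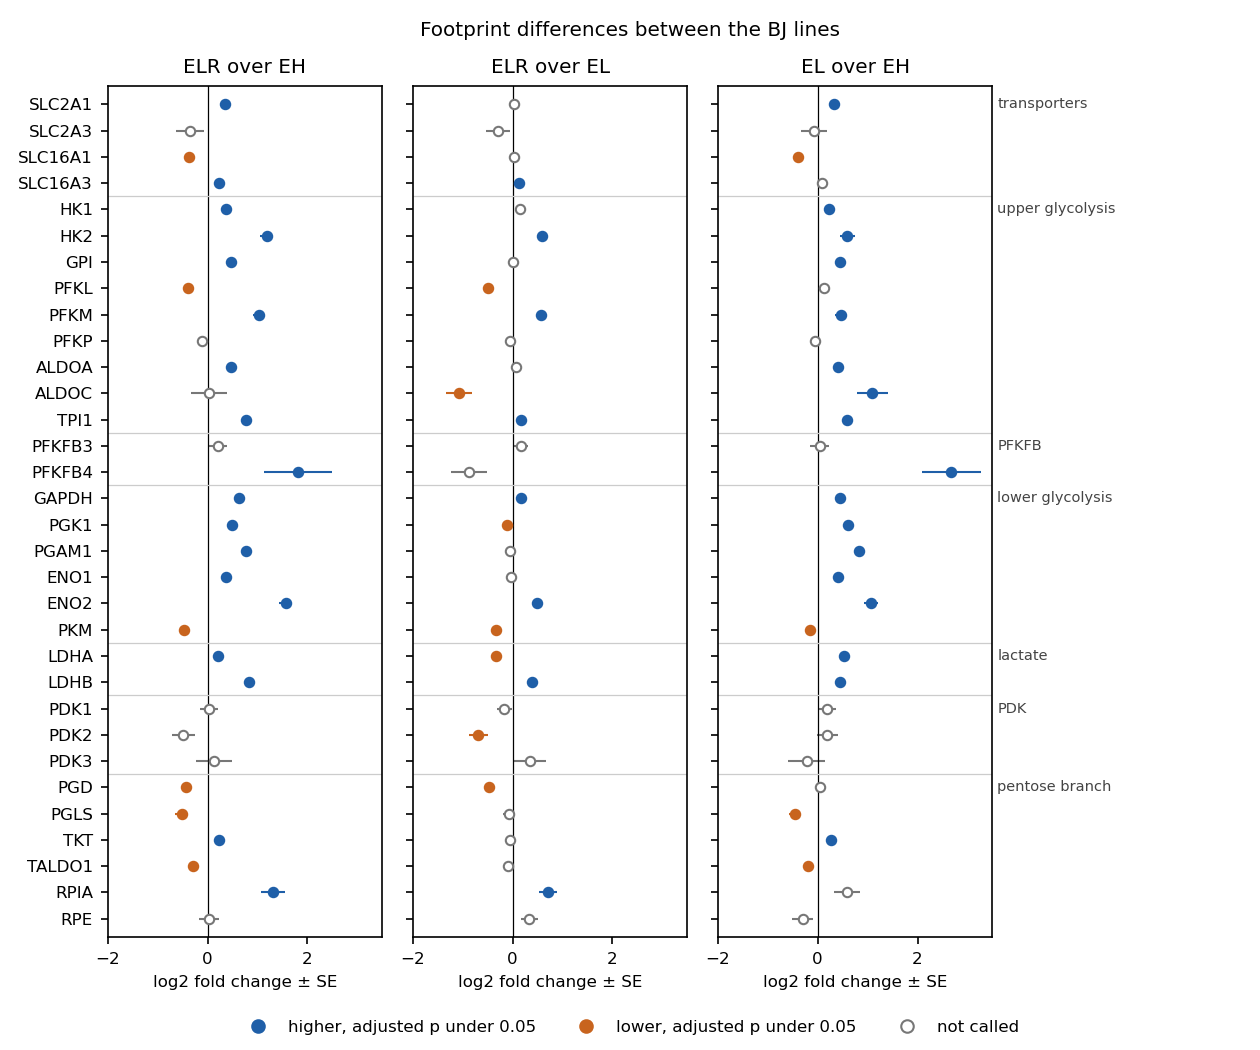
Log2 fold changes of cycloheximide footprints of the genes by role in the 3 comparisons of BJ lines (columns ELR over EH, ELR over EL, EL over EH). ENO2 stands at 1.57 in ELR over EH, and PKM is below 0 in all 3 columns. Bars are SE, and open marks were not called.

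In the fit of the BJ libraries alone, the 2 lactate dehydrogenase subunits parted between EL and ELR. With the spread shared with ER-Src, neither was called in ELR over EL. LDHB, the heart-type subunit, had 1651 and 1557 CPM in ELR, 1248 and 1211 CPM in EL and 861 and 953 CPM in EH, and it was higher in ELR than in EL by 0.39 ± 0.03 (SE, adjusted p = 1.23e-15) and in ELR than in EH by 0.83 ± 0.04 (adjusted p = 9.61e-29). LDHA had 3076 and 3023 CPM in ELR, 3884 and 3750.2 CPM in EL and 2576 and 2697 CPM in EH, so that EL was highest. Its log2 fold change was −0.32 ± 0.03 for ELR over EL (adjusted p = 4.16e-17) and 0.54 ± 0.03 for EL over EH (adjusted p = 3.21e-26). Both subunits were above EH in ELR, LDHA by 0.21 ± 0.03 (adjusted p = 6.17e-09).

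In the pentose phosphate branch no common direction appeared. RPIA, the ribose-5-phosphate isomerase, had 40.8 and 36.7 CPM in ELR, 23.4 and 24.5 CPM in EL and 19.2 and 11.7 CPM in EH, and it was higher in ELR than in EH by 1.30 ± 0.24 (SE, adjusted p = 3.67e-06). PGD, an NADPH-yielding enzyme, had 152 and 160.4 CPM in ELR, 216 and 217 CPM in EL and 209 and 208 CPM in EH, and it was lower in ELR than in EL (log2 fold change −0.48 ± 0.07, adjusted p = 1.3e-07). The ELR libraries were the lowest and did not overlap with the others. PGLS, the lactonase of the branch, had 78.1 and 68.6 CPM in ELR, 76.4 and 79.3 CPM in EL and 98.2 and 116 CPM in EH and was lower in ELR than in EH (−0.52 ± 0.12, adjusted p = 0.000283). The transaldolase TALDO1 had 287 and 310.5 CPM in ELR, 315 and 320.3 CPM in EL and 359.7 and 364 CPM in EH and was also lower in ELR than in EH (−0.28 ± 0.07, adjusted p = 0.000232). In both, the EH libraries were the highest. The transketolase TKT had 525 and 543 CPM in ELR, 536 and 562 CPM in EL and 441 and 471 CPM in EH and was higher in ELR than in EH (0.23 ± 0.06, adjusted p = 0.000392). PDK2 was lower in ELR than in EL, with 22.1 and 18.4 CPM in ELR, 31.4 and 34.9 CPM in EL and 28.8 and 28.8 CPM in EH (−0.68 ± 0.19, adjusted p = 0.00277).

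Harringtonine libraries of the BJ lines, which share no library with the cycloheximide ones, let 22 of the 34 genes pass the filter. Of these 8 were higher and 1 was lower in EL than in EH, where 18.5% of all genes were called, 7.57% higher and 11% lower. In ELR over EH 9 were higher and none lower, where 30.7% of all genes were called, 13.3% higher and 17.4% lower. In ELR over EL 2 were higher and 1 was lower, where 16.3% of all genes were called, 6.39% higher and 9.91% lower. HK2 had 238 and 207 CPM in ELR, 75.5 and 121 CPM in EL and 26.8 and 69.8 CPM in EH, with a log2 fold change of 1.17 ± 0.30 for ELR over EL (SE, adjusted p = 0.00144). Its ELR libraries stood above all others, and EL lay above EH without passing the test. GAPDH was higher in ELR than in EL by 0.20 ± 0.07 (adjusted p = 0.0207) and LDHA was lower (−0.27 ± 0.07, adjusted p = 0.000491). In EL over EH the 8 higher genes were SLC16A3 (1.06), PFKM (1.07), GPI (0.69), TPI1 (0.66), ALDOA (0.44), ENO1 (0.38), LDHA (0.38) and GAPDH (0.33), and TALDO1 was lower (−1.52; log2 fold changes). The counts of LDHA, TPI1, ALDOA, PFKM and GPI in these libraries depend on the transcript row taken, as described below. The EL over EH count rested on single libraries: without EH replicate 1 it was 3, and without EH replicate 2 or EL replicate 2 it was 5. DESeq2 called 3 genes in EL over EH and 0 in ELR over EL, and with counts summed over transcript rows these were 5 and 1. With DESeq2-type size factors in place of TMM, ELR over EH gave 8 higher and 1 lower, which was PKM.

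Loading in the BJ lines had 1 RNA library a line, so that the EL library enters EL over EH and ELR over EL with opposite sign. The calls depended on where the spread came from. With the BJ libraries alone, in which only the cycloheximide pairs are replicates (biological coefficient of variation 1.789%), 7 of 33 genes had higher loading in EL than in EH and none lower, where 6.71% of all genes were called, 3.78% higher and 2.92% lower. In ELR over EL none was higher and 7 were lower, where 2.97% of all genes were called, 1.03% higher and 1.94% lower. In ELR over EH 2 were higher and 3 lower, where 7.48% of all genes were called, 3.22% higher and 4.26% lower. The ER-Src RNA libraries had a coefficient of 19.17%, and with the ER-Src cycloheximide and RNA libraries in the fit, 0 of the genes were called in each of the 3 comparisons. Of all genes, 0.0576% were called there in EL over EH, 0.0165% in ELR over EL and 0.494% in ELR over EH. With DESeq2-type size factors the BJ libraries alone gave 1 higher and 5 lower in ELR over EL and 4 higher and 3 lower in ELR over EH. DESeq2's own test called 4 of the genes in EL over EH and 4 in ELR over EL. The loading values below are therefore given without p-values.

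LDHA had RNA of 1842 CPM in ELR, 1717 CPM in EL and 1898 CPM in EH, while its footprints were highest in EL. Its loading differed by −0.48 on the log2 scale in ELR over EL, by 0.22 in ELR over EH and by 0.70 in EL over EH. ALDOA had RNA of 423 CPM in ELR, 316 CPM in EL and 362 CPM in EH, and a loading value of 0.63 in EL over EH. ENO1 had RNA of 2636 CPM in ELR, 1879 CPM in EL and 1624 CPM in EH, and a loading value of −0.58 in ELR over EL. In these 3 genes the value was negative in ELR over EL and positive in EL over EH, which share the EL RNA library. GAPDH, PGK1, LDHB, ENO1 and TALDO1 completed the 7 in EL over EH, with log2 changes of 0.44, 0.39, 0.25, 0.22 and 0.82. ALDOA, PGK1, GAPDH, PKM and LDHB completed the 7 in ELR over EL, with −0.42, −0.42, −0.32, −0.24 and −0.22. In ELR over EH the others of the 5 were TKT (0.56), SLC16A1 (−0.53), ENO1 (−0.36) and PKM (−0.32). TALDO1 rests on little RNA, 46.6 CPM in ELR, 39.99 CPM in EL and 79.3 CPM in EH. HK2, PFKM and ENO2, whose footprints were higher in ELR than in EL and in EL than in EH, were called in loading by neither fit, and their RNA was 129, 152 and 54.2 CPM in ELR, against 73.2, 84.4 and 12.1 CPM in EH.

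**Figure D3:**
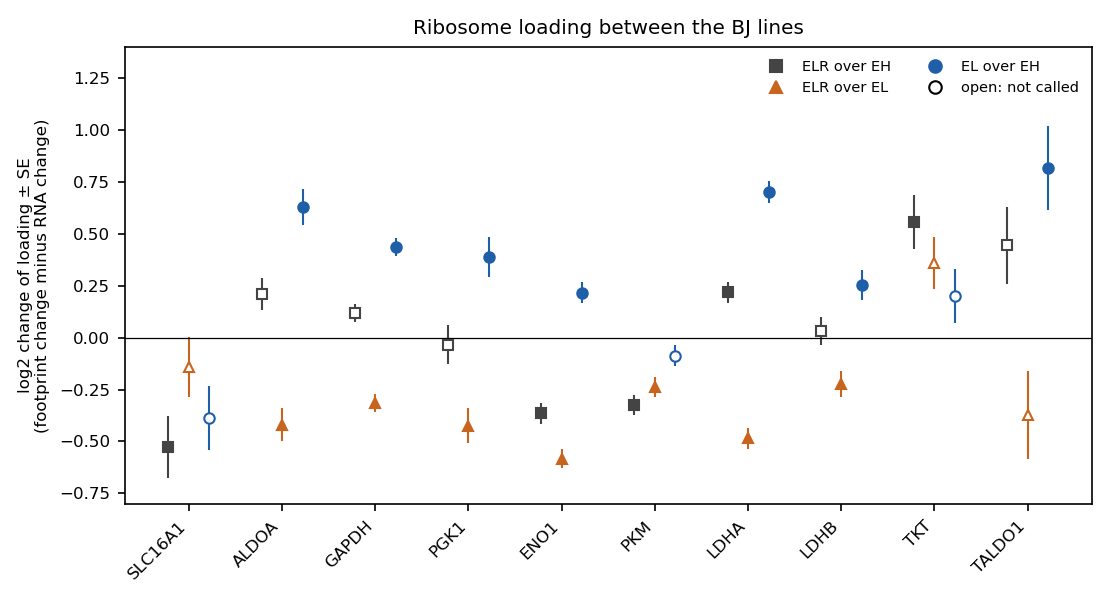
Log2 change in loading (footprints beyond RNA) of 10 genes between BJ lines, from the fit of the BJ libraries alone, with SE bars that hold no spread of RNA; squares are ELR over EH, triangles ELR over EL and circles EL over EH, and open marks were not called in that fit. LDHA stands at 0.70 in EL over EH and at −0.48 in ELR over EL, on the same EL RNA library.

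Relative to their RNA, most of the genes carried many footprints. The 2 assays differ in library method, so that a value is relative to all genes of its model. In uninduced ER-Src cells 21 of the 30 genes tested were higher in footprints than in RNA and 4 were lower, where 73.8% of all genes were called, 37.5% higher and 36.3% lower. In BJ lines 26 of 33 were higher and 1 was lower, where 78.2% of all genes were called, 38.7% higher and 39.5% lower. The median log2 ratio of footprints over RNA was 0.75 in uninduced ER-Src cells, against 0.03 for all genes, and 1.24 in BJ lines, against −0.02 for all genes. At the top, SLC2A1 had 2.53 ± 0.22 in ER-Src cells and 3.12 ± 0.11 in BJ lines (log2, SE), TALDO1 had 2.71 ± 0.15 in ER-Src cells and 2.76 ± 0.12 in BJ lines, and ALDOA had 2.31 ± 0.11 in ER-Src cells and 2.80 ± 0.11 in BJ lines. At the bottom, PDK1 had −1.11 ± 0.16 in ER-Src cells and −0.46 ± 0.11 in BJ lines and was lower in both. HK2, PFKFB2 and PFKM were lower in ER-Src cells (−0.88, −0.84 and −0.34) and were not called in BJ lines (−0.06, 0.66 and 0.07).

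**Figure D4:**
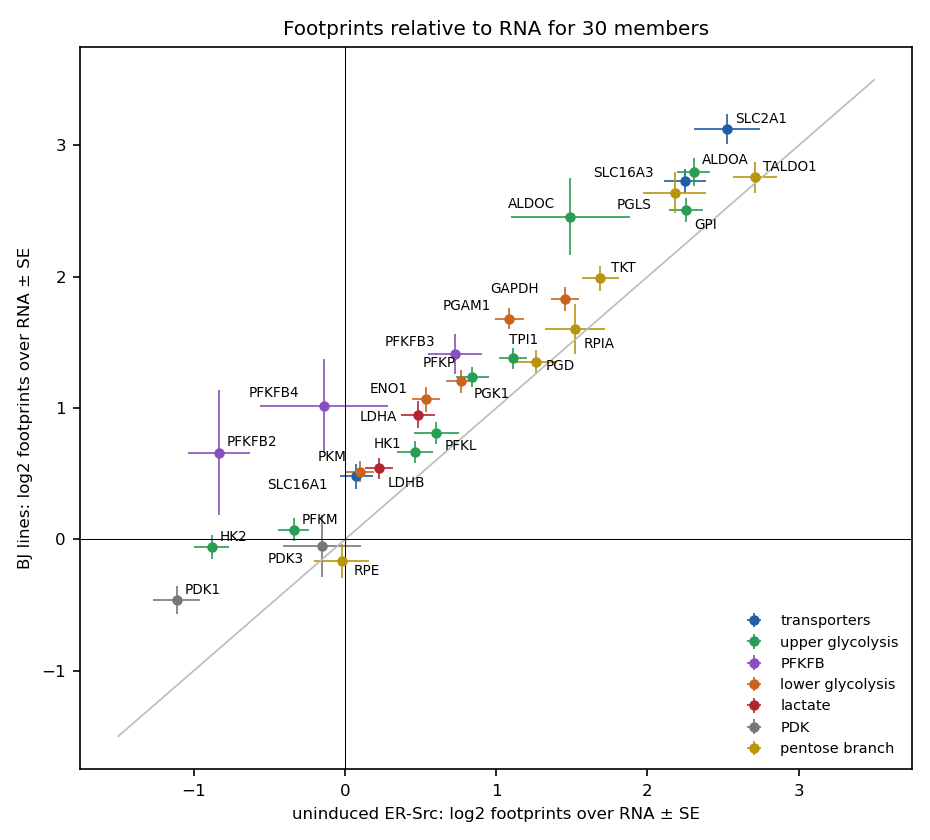
Log2 ratio of footprints over RNA of the 30 genes tested in both models, uninduced ER-Src cells on the x axis and BJ lines on the y axis, with SE bars, colours by role and a diagonal of equality. SLC2A1, TALDO1 and ALDOA stand at the upper right and PDK1, at −1.11 and −0.46, at the lower left.

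Uninduced ER-Src cells and the EH line differ in tissue, medium and culture, which cannot be told apart. Of 32 genes tested 10 had more footprints in uninduced ER-Src cells and 6 had fewer, where 56.8% of all genes were called, 28.7% higher and 28.1% lower. ENO2 had 3.01, 1.70, 1.09 and 0 CPM in the uninduced ER-Src libraries and 44.3 and 51.2 CPM in EH, with a log2 fold change of ER-Src over EH of −5.37 ± 0.49 (SE, adjusted p = 1.96e-06). SLC2A3 had 0, 0.681, 1.09 and 0.263 CPM in uninduced ER-Src cells and 17.7 and 21.6 CPM in EH (−5.05 ± 0.48, adjusted p = 3.13e-06). Both genes were near 0 in the epithelial cells and had counts in both EH cycloheximide libraries. They passed the filter on low counts only through the EH libraries, the group in which they were high. PDK2 had 3.01, 3.41, 2.89 and 7.37 CPM in uninduced ER-Src cells and 28.8 and 28.8 CPM in EH. PFKFB2, which is the PFKFB form of heart muscle, had 12.1, 21.1, 19.2 and 13.2 CPM in uninduced ER-Src cells and 3.69 and 2.70 CPM in EH. PDK2 needed the EH libraries to pass the filter, and PFKFB2 passed it only through the ER-Src libraries. PDK2 (−2.71), PFKL (−0.91), PDK1 (−0.68) and PGLS (−0.63) were also lower in ER-Src cells. PFKFB2 (2.30), LDHB (1.02), TKT (0.94), SLC16A1 (0.90), PFKM (0.77), GPI (0.75), PGK1 (0.49), HK1 (0.40), LDHA (0.39) and ENO1 (0.30) were higher. GAPDH, at −0.05 ± 0.11, was not called. In loading none of 33 genes was called by edgeR's quasi-likelihood test (lowest adjusted p = 0.168), where 0.351% of all genes were, 0.128% higher and 0.222% lower. At an unadjusted p under 0.05, 8 were lower in ER-Src cells, and DESeq2 called 2, both lower.

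The tables hold 77 transcript rows for the 34 genes. In 15 genes there was 1 row, in 3 (SLC16A1, SLC16A3 and LDHB) all rows held the same counts, and in 16 the rows differed. The row chosen had the highest count in all 36 libraries in 14 of these 16. GPI, with its row on top in 21 of 36 libraries, and PKM, with 24 of 36, were the exceptions. Rows of 1 gene share most of their reads, so that their differences are read as those of the parts they do not share.

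For several genes the rows differed more in harringtonine libraries than in cycloheximide or RNA libraries. The LDHA row NM_005566 held 32.4% of the count of the chosen row NM_001165414 in BJ harringtonine libraries, against 93.7% in BJ cycloheximide and 89.7% in BJ RNA libraries. In ER-Src cells these shares were 73.3%, 94.7% and 89.9%. The TPI1 row NM_000365 held 24.8% in BJ harringtonine libraries and 93.1% in BJ RNA. GPI row NM_001184722 held 197% of the chosen row in BJ harringtonine libraries and 102% in BJ RNA, and the PKM row NM_001206796 held 374% and 99.3%. In BJ harringtonine libraries ALDOA had a mean count of 376 in the chosen row and 136.5 in each other row, and PFKM had 33 and 18.8. A harringtonine level of these genes therefore depends on the row taken. ENO1 differed otherwise: its row NM_001201483 held 54.2% of the chosen row in ER-Src RNA and 51.8% in BJ RNA, against 81.3% and 82.0% in cycloheximide libraries.

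**Figure D5:**
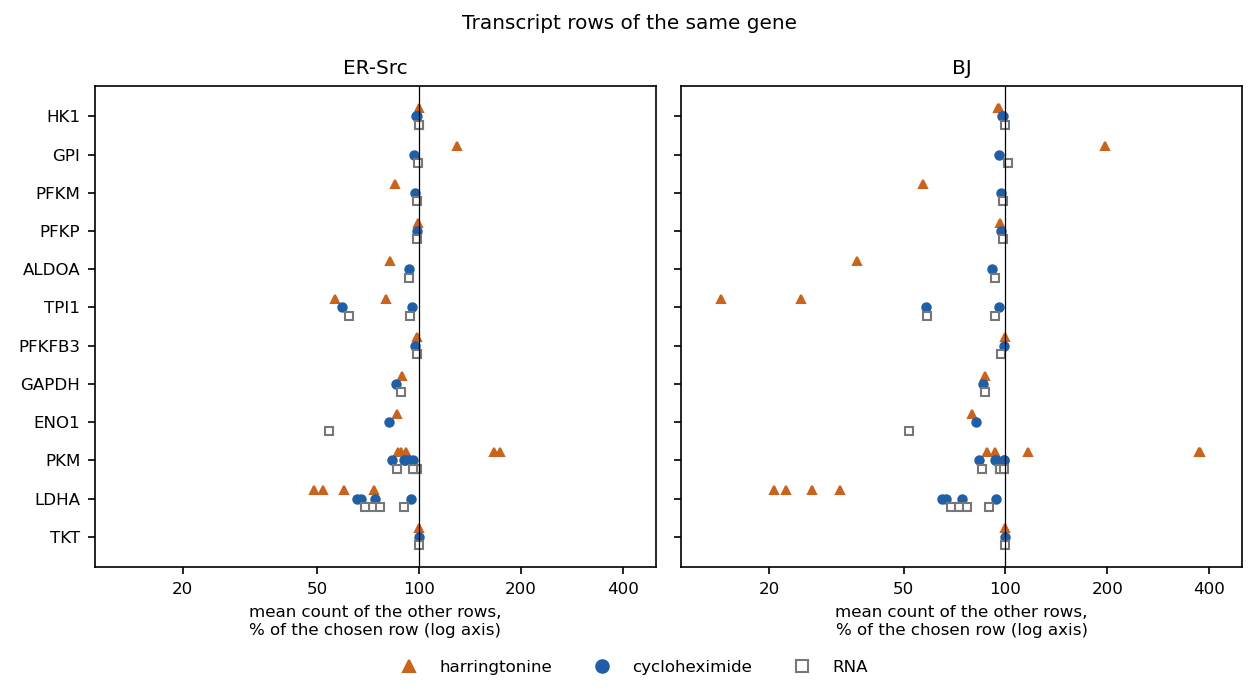
Mean count of the other transcript rows of 12 genes as percent of the chosen row (log axis), in harringtonine (triangles), cycloheximide (circles) and RNA libraries (open squares), for ER-Src cells and BJ lines. Rows of LDHA and TPI1 lie at 32.4% and 24.8% in BJ harringtonine libraries, and rows of PKM reach 375%.

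PKM carries a pair of mutually exclusive exons of 167 bases each, which make the M1 and M2 forms of pyruvate kinase, and M2 is the form of most proliferating cells. The exons are shown because they are the part that tells the row NM_002654 (M2) from the row NM_182470 (M1). They lie on the minus strand of GRCh37, the M2 exon at chr15:72494795-72494961 and the M1 exon at chr15:72495363-72495529, and each makes up 10.48% of the coding length of 1593 bases. They hold the same base at 105 positions (62.9%), and capitals mark the positions that differ.
PKM M2 exon: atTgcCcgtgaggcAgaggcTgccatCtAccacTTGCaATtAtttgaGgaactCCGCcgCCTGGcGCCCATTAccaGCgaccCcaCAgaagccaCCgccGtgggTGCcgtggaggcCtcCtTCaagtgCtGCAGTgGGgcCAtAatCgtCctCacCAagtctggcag
PKM M1 exon: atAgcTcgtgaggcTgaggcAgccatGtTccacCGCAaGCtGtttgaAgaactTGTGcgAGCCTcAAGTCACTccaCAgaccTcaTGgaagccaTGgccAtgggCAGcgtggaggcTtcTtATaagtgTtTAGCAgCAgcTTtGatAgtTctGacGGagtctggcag

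The count of the M2 row less that of the M1 row is the net count of the M2 exon over the M1 exon. It was 8.91% to 10.7% of the M2 row in the 10 ER-Src cycloheximide libraries and 5.65% to 8.34% in the 6 BJ cycloheximide libraries, so that the models did not overlap. Within the BJ lines it was 8.08% and 8.34% in ELR, 6.90% and 6.91% in EL, and 5.65% and 6.37% in EH. The order of the lines was the reverse of that of the whole PKM footprint level, which was lowest in ELR. In ER-Src cells the share was 10.7% and 9.49% at 24 h of tamoxifen and 8.91% to 10.2% in the uninduced libraries, which overlap. In RNA it was 3.40% to 4.27% in ER-Src cells and 2.91% to 3.96% in BJ lines, and these ranges overlap. These shares are descriptions of single rows and were not tested.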

How the data were processed

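Per the labels' protocols, total RNA was depleted of ribosomal RNA before library construction, and footprints were RNase I-protected fragments from cells given cycloheximide or harringtonine. The authors deposited whole-number read counts per transcript, and the submitters' processing notes name TopHat and the hg19 build; the counting program, counted region and strand setting are not given in the sources used here. The 34 genes and the lists beside them were chosen with earlier results of these data known.

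One transcript row per symbol, the one with the highest mean count over 36 libraries, was used. Counts were scaled by TMM and tested with edgeR 4.0.16 (quasi-likelihood test, R 4.3.3, limma 3.58.1) after a filter on low counts. The filter asked for a CPM matching 10 counts at the median library size, in as many libraries as the smallest group has. It also asked for 15 counts in total. A gene can thus pass through 1 group alone. P-values were adjusted by Benjamini-Hochberg over all genes tested, and genes were called at 0.05. CPM values use TMM-scaled library sizes. Loading was the interaction of group and assay. Groups with 1 library in such a fit were assumed to vary like the rest, and single libraries otherwise had no test. All 34 genes are named; per-library values, mainly of cycloheximide footprints, were given for those called in at least 2 comparisons or among the 3 largest changes of one. Alternatives were DESeq2 1.42.0, other size factors, no filter, summed rows, libraries left out, a replicate block, a shared spread and other uninduced or late groups; the lowest row of each gene, and for BJ loading a spread shared with ER-Src RNA, were added after the data were seen. Scripts were tested on simulated counts. Gene positions and coding lengths came from GENCODE on GRCh37, and promoter windows from RefSeq on GRCh38.p14. Sampling depth limits genes of few counts and the harringtonine libraries most. Some genes of the lists beside the 34 are not reported here.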

Additional observations from a re-analysis of the deposited data

Results flagged for a closer look

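In the groups of 4 uninduced ER-Src libraries, 68 comparisons of the highest or lowest library with its neighbour gave 4 genes with 1 library far from the others; chance alone flags about 1 in 20 groups. ALDOA footprints were 2462 CPM in the 0 h library, against 2105 to 2122 CPM in the 3 ethanol libraries. PDK2 footprints were 7.37 CPM at 24 h of ethanol, against 2.89 to 3.41 CPM in the other 3 libraries. SLC2A1 RNA was 13.1 CPM at 24 h of ethanol, against 30.9 to 31.6 CPM in the other 3, and PFKM RNA was 174 CPM in the same library, against 163 to 165 CPM.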

How the results depend on the processing

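The 177 results of single genes called in the main fits were recomputed under the alternatives, which gave 2311 values. Of these, 2099 kept their direction and their side of the threshold, 212 kept the direction only and none reversed. Fits with 1 library left out made up 1154 of the 2099. With the spread shared with ER-Src footprints, 33 BJ footprint values kept their call and 27 lost it. With the spread shared with ER-Src RNA, 0 BJ loading values kept their call and 19 lost it. Counts of called genes moved by over 1.5 times in the following cases. For footprints in ELR over EL, the spread shared with ER-Src gave 3 calls (15 as reported). In BJ harringtonine libraries, EL over EH gave 3 calls with DESeq2 and 5 with summed rows (9 as reported), and ELR over EL gave 0 and 1 (3 as reported). For BJ loading, DESeq2 gave 4 calls in EL over EH and 4 in ELR over EL (7 and 7 as reported), summed rows gave 3 in ELR over EH (5 as reported), and a spread shared with ER-Src footprint and RNA libraries gave 0 in each of the 3 comparisons. For late ER-Src RNA, no filter gave 1 call and the 24 h library alone 4 (0 as reported), and loading in uninduced ER-Src cells over EH gave 2 with DESeq2 (0 as reported). Leaving out libraries one at a time gave 3 to 9 calls for BJ harringtonine EL over EH, 5 to 9 for ER-Src footprints at 24 h and 0 to 4 for late ER-Src RNA, the 4 without the tamoxifen 4 h library. Over all genes, DESeq2 called 2461 in EL over EH footprints (4150 by edgeR) and 1822 in ELR over EL (3606 by edgeR). Deviations of same-numbered samples correlated at −0.0148 to 0.0237 in BJ lines and at 0.0389 to 0.233 in ER-Src cells. The ER-Src values were 0.233 for 4 h with 24 h, 0.183 for 1 h with 4 h and 0.0389 for 1 h with 24 h. Same-numbered ER-Src samples thus shared part of their deviations, and the reported fits hold no term for replicate number. The replicate block gave 9 calls at 24 h, 21, 17 and 24 in BJ footprints (EL over EH, ELR over EL, ELR over EH) and 9, 3 and 9 in BJ harringtonine libraries. The causes of these shifts were not tested. Depth limits SLC2A3, ENO2 and PFKFB4 in ER-Src cells, PFKFB4 in EH and the 12 genes that failed the filter in BJ harringtonine libraries.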
